A study of Mus musculus with 2 samples.

Results

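Gata3 is the gene of a zinc-finger transcription factor that binds GATA sequences and is needed for T cell development from the earliest thymic progenitors onward. It was examined with its surroundings on mouse chromosome 2 in DNase-seq data of thymus. The window was the Gata3 gene record of GENCODE M21 (mm10, chr2:9857078-9890034, minus strand) plus 500 kb on either side, chr2:9357078-10390034, or 1033.0 kb in all. Gata3 is 1 of 21755 protein-coding genes measured in the same way. The window held 54 of 59484 peaks in mouse 1 and 60 of 72913 peaks in mouse 2, a mean of 57 ± 4.24 (SD, n = 2).

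Both animals were female B6CASTF1/J mice aged 36 days, with 1 library of thymus tissue each, and they form 1 group with no treatment. The strain is a first-generation cross between C57BL/6J, a laboratory strain, and CAST/EiJ, which was derived from wild mice, so every cell carries 1 Gata3 allele of each strain, and the deposited values do not separate the alleles. Mouse 1 and mouse 2 below are the animals that the labels number as biological replicates 1 and 2. DNase-seq counts cuts by the nuclease DNase I, which falls mainly on DNA that is free of nucleosomes. A peak is a narrow site of dense cutting, and an accessible region is a run of bases whose local cut rate passed an FDR of 0.05. A footprint is a short stretch inside such a region that was cut less than its surroundings. Peak strength is given as the authors' deposited signal, a height in whole multiples of a step that differs between the libraries. The scale carries no name in the sources used here, and whether it corrects fully for depth was not tested. In bulk tissue a signal that differs because fewer cells open a site cannot be told apart from less opening per cell.

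GATA3 acts repeatedly in the thymus. It is required at T lineage commitment, again for the development of CD4 T cells, and outside the thymus in T helper 2 cells and innate lymphoid cells. The gene is switched by elements spread over a long stretch of DNA beyond its 3′ end. Published work in mice described an enhancer far downstream that is active in thymocytes and natural killer cells, about 280 kb from the gene. Enhancers are stretches of DNA bound by transcription factors that raise the output of a promoter at a distance.

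Gata3 lies at the edge of a long stretch without other protein-coding genes. Beyond its 3′ end, the next protein-coding start in the direction of transcription belonged to Celf2, a gene of an RNA-binding protein, 2347.5 kb away. None of the other 8 protein-coding genes of the window lies beyond the 3′ end. Of these, 4930412O13Rik and 9230102O04Rik lie inside the 5′ part of the Gata3 record, and the rest lie upstream of it. The gene record starts 11.4 kb upstream of the principal transcript Gata3-201 (chr2:9857078-9878600), because it includes longer 5′ transcripts. Distances below count from the start of the principal transcript, with plus signs for downstream in the direction of Gata3 transcription. Overlapping peaks of the mice were joined into sites, and a site is named by that distance.

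The sequences of 6 sites are printed because the results turn on them. They are the strongest site of the promoter zone, the strongest site of each zone downstream, and the other strong site of the far downstream cluster. Each is 200 bases about the centre of the site, read from the plus strand of the mm10 reference (RefSeq GRCm38, the C57BL/6J sequence). Capitals mark bases that lay inside a footprint in both mice.
Site at −1.1 kb (chr2:9879581-9879780): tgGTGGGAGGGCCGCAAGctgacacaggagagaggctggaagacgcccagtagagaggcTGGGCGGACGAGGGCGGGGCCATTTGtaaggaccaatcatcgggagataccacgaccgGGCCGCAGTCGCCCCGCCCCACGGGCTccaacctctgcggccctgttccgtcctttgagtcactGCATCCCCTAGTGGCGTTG
Site at +50.8 kb (chr2:9827711-9827910): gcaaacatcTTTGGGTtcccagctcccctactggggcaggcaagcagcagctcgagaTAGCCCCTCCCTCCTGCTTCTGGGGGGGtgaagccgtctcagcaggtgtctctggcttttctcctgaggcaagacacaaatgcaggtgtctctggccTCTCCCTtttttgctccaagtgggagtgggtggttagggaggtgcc
Site at +196.7 kb (chr2:9681761-9681960): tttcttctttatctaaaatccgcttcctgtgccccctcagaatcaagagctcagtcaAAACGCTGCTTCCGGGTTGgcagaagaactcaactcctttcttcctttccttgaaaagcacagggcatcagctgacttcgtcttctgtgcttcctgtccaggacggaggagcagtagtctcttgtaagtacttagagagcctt
Site at +283.0 kb (chr2:9595471-9595670): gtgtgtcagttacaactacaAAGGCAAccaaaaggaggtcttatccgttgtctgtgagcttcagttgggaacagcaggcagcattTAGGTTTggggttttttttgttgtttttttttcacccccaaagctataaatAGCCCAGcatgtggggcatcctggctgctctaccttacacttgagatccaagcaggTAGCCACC
Site at +284.4 kb (chr2:9594131-9594330): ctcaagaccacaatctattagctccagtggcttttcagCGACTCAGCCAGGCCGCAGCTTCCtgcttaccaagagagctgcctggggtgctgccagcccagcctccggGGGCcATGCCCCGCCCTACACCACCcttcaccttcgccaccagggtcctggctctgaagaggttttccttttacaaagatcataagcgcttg
Site at +384.6 kb (chr2:9493861-9494060): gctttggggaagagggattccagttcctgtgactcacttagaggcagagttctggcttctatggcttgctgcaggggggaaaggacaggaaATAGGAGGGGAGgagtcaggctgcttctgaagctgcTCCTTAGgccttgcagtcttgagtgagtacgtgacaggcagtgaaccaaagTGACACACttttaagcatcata
Base composition differed across them. The promoter-zone sequence held 65.5% G and C, and those at +50.8 and +284.4 kb held 59% and 58.5%. The sequences at +384.6, +196.7 and +283.0 kb were lower, at 51.5%, 48% and 46.5%. Footprints of both mice covered 88 of the 200 bases at −1.1 kb, 48 at +284.4 kb, 42 at +50.8 kb, 29 at +283.0 kb, 27 at +384.6 kb and 19 at +196.7 kb.

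The labelled tissue was checked by promoter peaks, counted within 1 kb of an annotated start. All 10 thymocyte marker genes had a promoter peak in both mice, against 56.6% of all protein-coding genes. Of the B cell genes, Pax5 and Ebf1 had a promoter peak in both mice. The counts were 0 of 5 for myeloid and dendritic cells and 2 of 5 for innate lymphoid and natural killer cells (Eomes and Rora). They were 1 of 5 for thymic epithelium (Epcam), 2 of 5 for endothelium and mesenchyme (Pecam1 and Pdgfra) and 0 of 5 for tissues that should be absent. The promoters of the B cell genes Cd79a and Ms4a1 and of Il1rl1, Ncr1, Klrb1c, Foxn1, Psmb11 and Cdh5 had no peak in either mouse.

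The Gata3 window was richer in peaks than the genome. It held 52.3 peaks per Mb in mouse 1, against 21.8 over the genome, and 58.1 in mouse 2, against 26.8. Accessible regions covered 32337 bases (3.13%) in mouse 1 and 30757 bases (2.98%) in mouse 2, against 1.28% and 1.47% of the genome. Both measures were more than 2-fold those of the genome in each mouse. The excess depended on the size of the window. With 1 Mb on either side, the mean of the mice was 60 peaks and 33774 accessible bases, against 57 and 31547 with 500 kb. Both densities were therefore lower over the wider window. In the 500 kb window the mice had 174 and 131 accessible regions, of which 45 and 34 touched no entry of that library's longer, more permissive peak list. No genome-wide share is given beside these counts, so whether they are particular to Gata3 cannot be read from them. Footprints numbered 272 in each mouse, or 8.41 and 8.84 per kb of accessible sequence, against 8.45 and 8.7 over the genome.

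Peaks were joined into 63 sites, of which 47 were found in both mice, 5 in mouse 1 alone and 11 in mouse 2 alone. By an overlap of 1 bp or more, 48 of the 54 peaks of mouse 1 (88.9%) were found in mouse 2, against 80.8% of all mouse 1 peaks. In the other direction 49 of 60 (81.7%) were found, against 66.1% of all mouse 2 peaks. Sites found in 1 mouse were weak or of middling strength. The strongest of them had a signal of 1.29 in mouse 1, beside the Taf3 promoter, and of 1.2 in mouse 2, at the 5′ end of the Gata3 record. Both of these sites lay within 1 kb of an annotated start. Their values were below the median of promoter peaks, which was 1.74 in mouse 1 and 2.69 in mouse 2. They were above the median of peaks away from promoters, which was 1 in mouse 1 and 1.13 in mouse 2. Of the 5 sites of mouse 1 alone, 3 had an entry in the longer list of mouse 2, and 7 of the 11 of mouse 2 alone had an entry in that of mouse 1. Of the footprints, 118 of 272 (43.4%) of mouse 1 overlapped one of mouse 2, against 55.6% over the whole library. For mouse 2 the count was 121 of 272 (44.5%), which is near the 45.2% of its whole library.

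**Figure D1:**
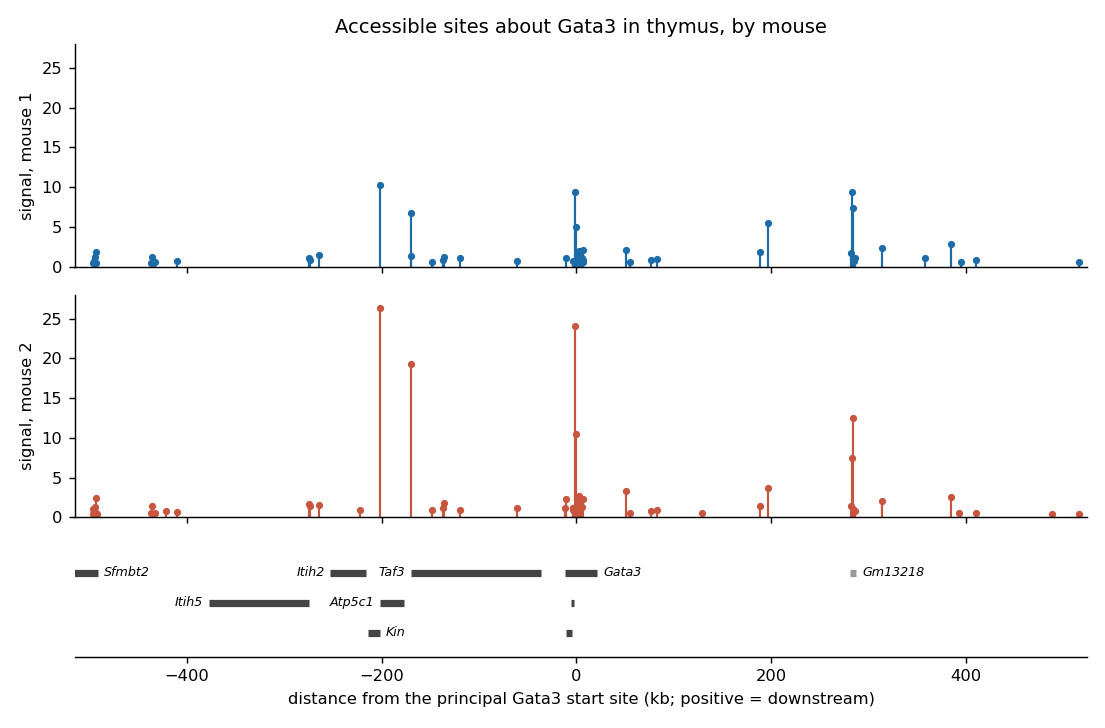
Signal of each accessible site (vertical axis, the authors' deposited signal) by its distance from the principal Gata3 start in kb (horizontal axis, downstream to the right), mouse 1 above and mouse 2 below, with protein-coding genes and the lincRNA gene Gm13218 as bars at the bottom. The tall stems upstream are the shared Atp5c1 and Kin promoter and the Taf3 promoter. The tall stems downstream are the site at +196.7 kb and the pair at +283.0 and +284.4 kb, in a stretch with no protein-coding gene.

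The strongest accessible site of the gene lay not on the principal start but 1.1 kb upstream of it. This site (chr2:9879561-9879800) had a signal of 9.41 in mouse 1 and 24.1 in mouse 2, a mean of 16.8 ± 10.4 (SD, n = 2). It lies in an intron of the longer 5′ transcripts and in no annotated exon. Its signal exceeded that of 98.8% of the peaks away from promoters in mouse 1 and 99.8% in mouse 2. The site itself counts as a promoter site, and promoter peaks had higher medians, 1.74 in mouse 1 and 2.69 in mouse 2. Its rank among promoter peaks is not given here. The site over the principal start itself (chr2:9878541-9878740) covers the 5′ end of the exon there and the antisense gene Gm13256. Its signal reached 5 in mouse 1 and 10.5 in mouse 2. The upstream site was the stronger in both animals. The lowest FDR of the accessible regions followed the same order. At −1.1 kb its −log10 was 107 in mouse 1 and 161 in mouse 2, and over the start it was 52.5 and 66.5.

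**Figure D2:**
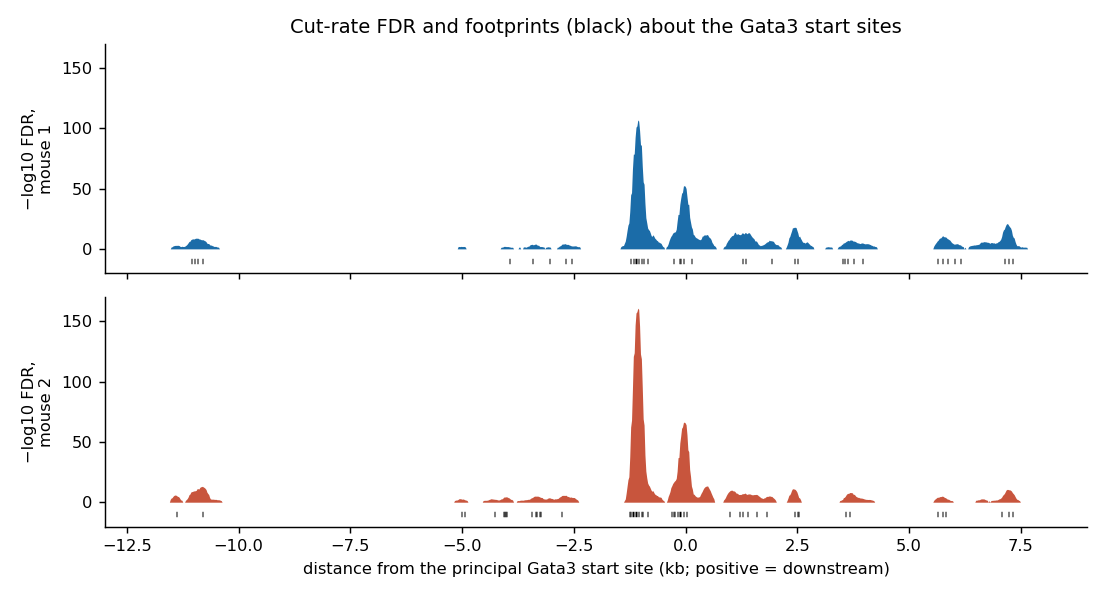
Strength of cutting as −log10 of the FDR (vertical axis) along the 5′ part of Gata3 by distance from the principal start in kb (horizontal axis), mouse 1 above and mouse 2 below, with footprints as black ticks. The tallest peak in both mice stands at −1.1 kb and the next at the start, followed by low, wide accessible stretches inside the gene and 11 kb upstream.

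The 5′ part of the gene held a row of weaker sites. The site at +2.4 kb, an intronic site close to the start of a short transcript, had a signal of 1.93 in mouse 1 and 2.67 in mouse 2. The site at +7.2 kb, the strongest of the rest of the gene body and also intronic, had 2.11 in mouse 1 and 2.37 in mouse 2. That at +1.9 kb had 0.913 in mouse 1 and 1.5 in mouse 2. These sites were several-fold weaker than the site at −1.1 kb in each mouse. The site at −2.6 kb lies in an exon of 4930412O13Rik, a gene inside the Gata3 record on the other strand, and had 0.747 in mouse 1 and 1.16 in mouse 2. At the 5′ end of the record, the site at −10.9 kb had 1.16 in mouse 1 and 2.35 in mouse 2. No peak lay between +7.2 kb and the 3′ end of the gene in either mouse. Over the whole record, 14 sites had a peak in mouse 1 and 15 in mouse 2, and accessible regions covered 28.8% and 26.4% of it.

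Beyond the 3′ end, 18 sites had a peak in mouse 1 and 19 in mouse 2. The peaks there were 35.2% of those of the window in mouse 1 and 33.3% in mouse 2. They were unevenly spread, with 43.3 kb free of peaks from +7.2 kb to the site at +50.8 kb and 60.1 kb before that at +188.9 kb. The longest stretch empty in both mice, 85.2 kb (chr2:9596501-9681680), lay between the site at +196.7 kb and the far cluster. Another of 77.7 kb lay before the last sites of the window. Mouse 1 had no peak at the sites at +128.6 and +488.8 kb, so its empty stretches ran on past them and were longer there.

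Within 100 kb of the 3′ end, 4 sites were present in both mice. The strongest, at +50.8 kb (chr2:9827681-9827940, intergenic), had a signal of 2.05 in mouse 1 and 3.31 in mouse 2. The site at +82.4 kb had 0.957 in mouse 1 and 0.877 in mouse 2, and that at +76.9 kb had 0.842 in mouse 1 and 0.771 in mouse 2. The last 2 were below the median of peaks away from promoters, which was 1 in mouse 1 and 1.13 in mouse 2.

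Between 100 and 250 kb beyond the 3′ end, a single strong site stood out. The site at +196.7 kb (chr2:9681681-9682040, intergenic) had a signal of 5.56 in mouse 1 and 3.7 in mouse 2. Its neighbour at +188.9 kb had 1.88 in mouse 1 and 1.5 in mouse 2. Both sites were higher in mouse 1. The third site of the zone, at +128.6 kb, had no peak in mouse 1, also in the longer list, and a signal of 0.529 in mouse 2.

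The densest far element was a cluster of 6 sites with at most 0.5 kb between neighbours, at chr2:9592681-9596500. All 6 had a peak in both mice. The cluster spans 3820 bp and lies inside Gm13218, a lincRNA gene on the minus strand (chr2:9591219-9597843), outside its exons. Its centre sites lie 261.5 to 262.8 kb beyond the 3′ end of Gata3. The site at +284.4 kb (chr2:9594121-9594340) had a signal of 7.44 in mouse 1 and 12.5 in mouse 2, a mean of 9.99 ± 3.61 (SD, n = 2). The site at +283.0 kb (chr2:9595341-9595800) had 9.39 in mouse 1 and 7.5 in mouse 2, a mean of 8.44 ± 1.34 (SD, n = 2). The mice thus put these neighbours in opposite order, and their means differ by less than the SD at +284.4 kb. In both mice the stronger of these sites was above the site over the principal start. It was close to the −1.1 kb site in mouse 1 (9.39 against 9.41) and below it in mouse 2 (12.5 against 24.1).

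The other 4 sites of the cluster were weak. The site at +282.3 kb had 1.74 in mouse 1 and 1.47 in mouse 2, and that at +285.8 kb had 1.1 in mouse 1 and 0.796 in mouse 2. The site at +283.8 kb had 1.05 in mouse 1 and 1.06 in mouse 2, but 92.2% of its bases are annotated repeats. The site at +285.0 kb had 0.747 in mouse 1 and 0.851 in mouse 2. The whole cluster was accessible over 86.6% of its length in mouse 1 and 78.7% in mouse 2, with a longest unbroken region of 1563 bp in mouse 1 and 1190 bp in mouse 2. Its sites carried a summed signal of 21.5 in mouse 1 and 24.2 in mouse 2, which was 51.5% and 57.8% of all signal downstream of Gata3. As a share of the window it was 20.7% in mouse 1 and 14.5% in mouse 2. The summed signals of the mice were closer here than over the gene record, where they were 28.3 in mouse 1 and 56.9 in mouse 2. Footprints in the cluster numbered 32 in mouse 1 and 24 in mouse 2, of which 18 and 17 overlapped a footprint of the other mouse. The published thymocyte enhancer named above lies at a similar distance from the gene, but its bases were not compared with the cluster here.

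**Figure D3:**
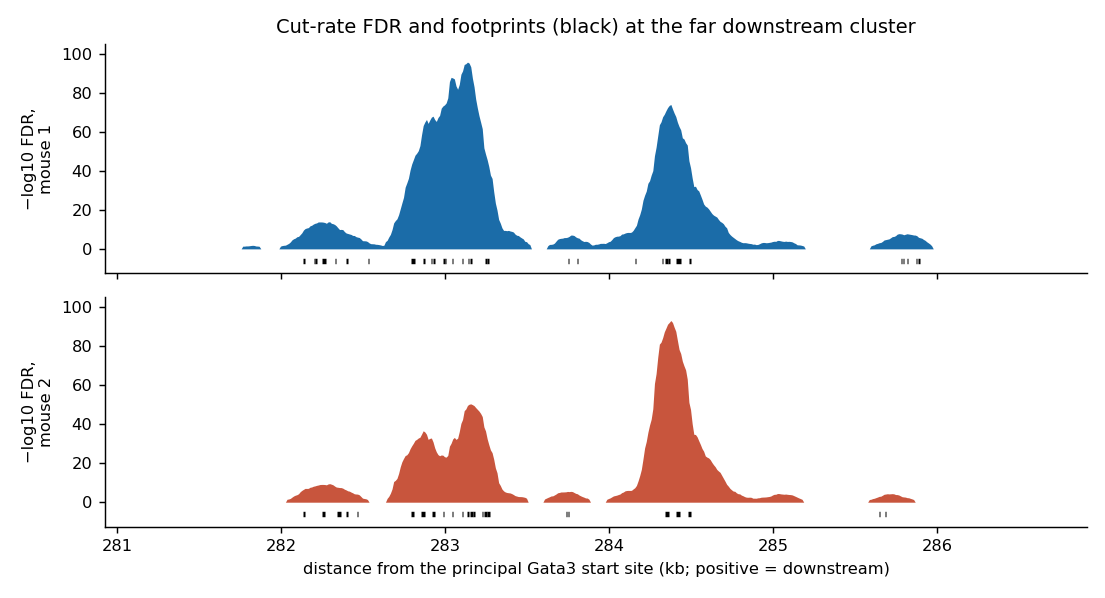
Strength of cutting as −log10 of the FDR (vertical axis) across the far downstream cluster by distance from the principal Gata3 start in kb (horizontal axis), mouse 1 above and mouse 2 below, with footprints as black ticks. The site at +283.0 kb is the taller in mouse 1 (highest value 95.7) and that at +284.4 kb the taller in mouse 2 (93.1). Footprints are most numerous under the site at +283.0 kb, with 12 in each mouse, against 4 in mouse 1 and 2 in mouse 2 inside the site at +284.4 kb.

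The remaining downstream sites were weaker. The site at +313.8 kb had a signal of 2.41 in mouse 1 and 2.01 in mouse 2. Further out, the site at +384.6 kb (chr2:9493861-9494060, intergenic) had 2.85 in mouse 1 and 2.56 in mouse 2, and was the strongest more than 310 kb beyond the 3′ end. The site at +410.8 kb had 0.862 in mouse 1 and 0.509 in mouse 2. The site at +358.4 kb had a peak in mouse 1 alone, with a signal of 1.12, although an accessible region of 201 bp was listed there in mouse 2.

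Far from any protein-coding start, the cluster was among the strong sites of the genome. Of 15553 sites more than 50 kb from every protein-coding start, the site at +284.4 kb ranked 108 by mean signal, above 99.3% of them. The site at +283.0 kb ranked 173, above 98.9%. The site at +196.7 kb ranked 662, above 95.7%, and those at +384.6 and +50.8 kb exceeded 89.6% and 89.5%. These are ranks of a mean over the mice, and they carry no error of their own.

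Set against other genes, the number of peaks about Gata3 was ordinary over all genes and high among genes with an empty downstream flank. The mean of 57 peaks exceeded that of 61.7% of all 21755 protein-coding genes, whose median was 43.5. Among 814 genes with no other protein-coding start in the 500 kb downstream, the median was 10 and Gata3 ranked 33, with more peaks than 95.8% of them. This count covers the whole window, with the gene and its 5′ side, where other protein-coding genes lie. By the number of sites outside promoters 100 to 500 kb downstream, Gata3 ranked 16 among the 814, whose median was 0. A site outside promoters at least as strong as that at +284.4 kb was present 100 to 500 kb downstream of 11.8% of all protein-coding genes. Among the 814 genes with an empty flank this share was 0.86%, or 7 genes, Gata3 included. Gata3, with a mean signal of 9.99, was only just above the next genes, Nuak1 and 1500009L16Rik, which share a site with a mean of 9.97 (10.3 in mouse 1 and 9.62 in mouse 2). The others of the 7 were Gm11361, Sox4, Rab3c, Gm8797, Vrk1 and 3110018I06Rik. Gm11361 and Sox4 share their site, whose signal was 22.4 in mouse 1, against 26.5 in mouse 2. Sox4 is the gene of a transcription factor of lymphoid progenitors. A site was assigned to every gene within range, and no link to a promoter was measured.

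Upstream of the Gata3 record, 12 of 25 sites lay within 1 kb of an annotated start and 13 lay elsewhere. Over the genome, 48361 of 81968 sites lay elsewhere. The 100 kb next to the record were less accessible than the genome. Accessible bases were 0.562% in mouse 1 and 0.689% in mouse 2, against 1.28% and 1.47% of the genome. A single site lay there, at −60.9 kb in an intron of Taf3, with a signal of 0.676 in mouse 1 and 1.17 in mouse 2. The strongest site of the whole window lay at −201.9 kb, over the start sites of Atp5c1, a subunit gene of mitochondrial ATP synthase, and Kin, which encodes a DNA-binding protein. It had a signal of 10.3 in mouse 1 and 26.3 in mouse 2. The promoter of Taf3, a subunit gene of the general transcription factor TFIID, had 6.77 in mouse 1 and 19.3 in mouse 2. That of Sfmbt2, a Polycomb group gene, had 1.84 in mouse 1 and 2.39 in mouse 2. That of Itih5, a gene of the inter-alpha-trypsin inhibitor family, had 1.1 in mouse 1 and 1.73 in mouse 2, and that of its relative Itih2 had no peak. The 2 protein-coding genes inside the Gata3 record had promoter signals of 0.747 in mouse 1 and 1.16 in mouse 2 (4930412O13Rik), and of 1.16 and 2.35 (9230102O04Rik).

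As a group, the sites beyond the 3′ end, near and far, differed from the gene in how the mice compared. On the log2 scale, the signal of mouse 1 over mouse 2 had a median of −0.75 over all 46907 peak pairs of the genome (SD 0.76), of which 18.5% were higher in mouse 1. Over the 47 pairs of the window the median was −0.19 (SD 0.59). It was 0.20 over the 16 pairs downstream (SD 0.47), of which 12 were higher in mouse 1, and −0.70 over the 12 pairs of the gene record (SD 0.36), of which 0 were higher in mouse 1. The 19 pairs upstream had a median of −0.38 (SD 0.52), and 4 were higher in mouse 1.

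The ratio moved with base composition over the whole genome. In 5 groups of pairs by GC content, from low to high, the genome-wide medians were −0.05, −0.30, −0.56, −0.94 and −1.42. The pairs of the window had medians of 0.26, −0.11, −0.18, −0.67 and −1.36 in those groups, over 13, 10, 10, 10 and 4 pairs. The downstream pairs had a median GC content of 51%, against 57.1% in the gene record. Of the 16 downstream pairs, 15 lay above the median of their own GC group and 12 lay within 1 SD of it. Of the 12 pairs of the gene record, 5 lay above and 11 lay within 1 SD. Of the 19 upstream pairs, 11 lay above and 15 lay within 1 SD. The pair at +284.4 kb, with a log2 ratio of −0.75, was the only downstream pair below the median of its group, at −0.33 SD. The pair at +283.0 kb was above by 1.33 SD. There the single peak of mouse 1 (9.39) is paired with the weaker of 2 mouse 2 peaks (4.44), the other of which has the 7.5 given above. With 1 library per mouse, a difference between animals and a difference between libraries cannot be told apart.

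**Figure D4:**
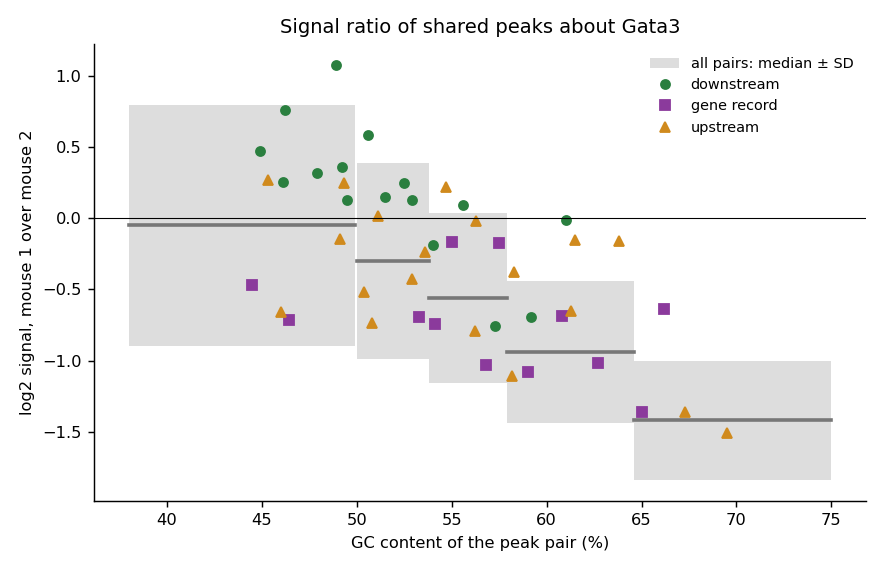
Log2 signal of mouse 1 over mouse 2 (vertical axis) against the GC content of each peak pair in % (horizontal axis) for the 47 pairs of the Gata3 window, with grey bands for the median ± SD of all pairs of the genome in 5 GC groups. Downstream pairs (circles) sit mostly above 0 and toward low GC, and pairs of the gene record (squares) all sit below 0.

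Short words known from binding sites were searched on both strands of the printed sequences. A match is a match of letters and not a bound site. The GATA word was searched as AGATAA, in the further form AGATAG, and likewise with a leading T as TGATAA and in the further form TGATAG. The RUNX word was searched as TGTGGT and in the further form TGCGGT, and the TCF/LEF word as ATCAAAG and in the further form TTCAAAG. The E-box was searched as CAGCTG and in the further form CACCTG, and the MYB word as CAACTG and in the further form CAACGG. The ETS word was GGAAGT, the RBPJ word GTGGGAA, the Ikaros word TGGGAA and the STAT word TTCNNNGAA, where N is any base. Added after the sequences were seen were the GC box, GGGCGG, the core of the CTCF site, CCACNAGNG, and the CCAAT box, CCAAT. The Ikaros word lies inside the RBPJ word. The sequence at −1.1 kb held 3 GC boxes and a CTCF core, all inside footprints of both mice, and a CCAAT outside them. The GC box is read by Sp and KLF family factors, and CTCF is the main protein of loop boundaries.

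At +284.4 kb the sequence held a GC box inside a footprint in both mice, a CTCF core of which 7 bases lay in a footprint in mouse 1 and 0 in mouse 2, and a RUNX word outside footprints. At +283.0 kb it held 2 MYB words and an Ikaros word, all outside footprints. At +196.7 kb it held GATA, E-box and STAT words, none of them inside a footprint over its full length in either mouse. At +50.8 kb it held a GATA word with 3 of its bases in a footprint in mouse 1 and all 6 in mouse 2, 2 E-boxes and an Ikaros word. None of the words was found at +384.6 kb. The cluster sequences therefore held no GATA word in these 200 bases, whereas those at +50.8 and +196.7 kb did.

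Over all 21 downstream sites the words occurred at rates near those elsewhere. A GATA word stood in 6 (28.6%), against 20.8% of the 48361 sites of the genome outside promoters. A RUNX word stood in 7 (33.3%), against 25.8%, an E-box in 10 (47.6%), against 42.5%, and an ETS word in 5 (23.8%), against 21.3%. The GC box stood in 4 (19%), against 11.3%. The other words were a little rarer downstream of Gata3. TCF/LEF stood in 1 (4.76%), against 8.6%, MYB in 2 (9.52%), against 13.4%, and Ikaros in 3 (14.3%), against 17.5%. STAT stood in 1 (4.76%), against 5.23%, the CTCF core in 1 (4.76%), against 8.96%, CCAAT in 2 (9.52%), against 18.2%, and RBPJ in 0, against 4.89%. With 21 sites, each match moves such a share by nearly 5 percentage points.

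Bcl11b and Myc, other transcription factor genes of thymocytes, were measured in the same way. Gata3 had 17 sites outside promoters 100 to 500 kb beyond its 3′ end, 12 of them in both mice. Bcl11b, which fixes the T lineage fate, had 38, of which 20 were in both mice. Its strongest was 180.9 kb beyond the 3′ end, with a signal of 5.06 in mouse 1 and 5.4 in mouse 2. Myc, the growth-control gene, had 16, of which 10 were in both mice. Its strongest was 179.4 kb beyond the 3′ end, with 6.61 in mouse 1 and 3.22 in mouse 2. The strongest far downstream site of Gata3 was above these in each mouse. Promoter signals were 9.41 in mouse 1 and 24.1 in mouse 2 for Gata3, against 9.41 and 11.8 for Bcl11b and 1.37 and 4.29 for Myc. Bcl11b had 62 peaks in its window in mouse 1 and 113 in mouse 2, a wider gap between the mice than at Gata3, and Myc had 26 in each.

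**Figure D5:**
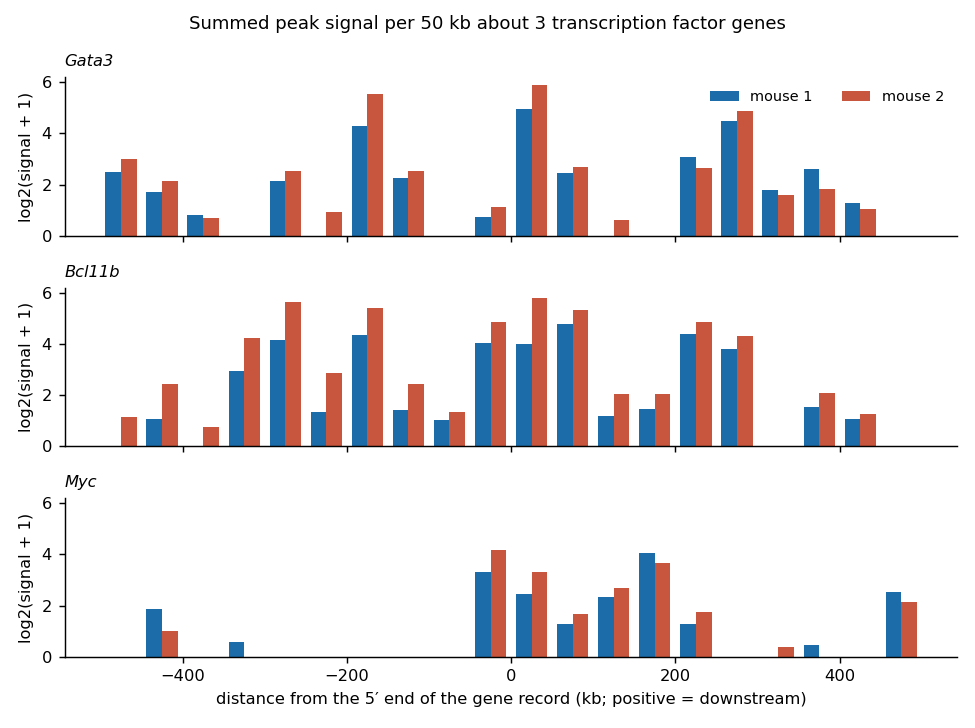
Summed peak signal per 50 kb on a log2(signal + 1) scale (vertical axis) from 500 kb upstream to 500 kb downstream of the 5′ end of Gata3, Bcl11b and Myc (horizontal axis), with bars for mouse 1 and mouse 2. Gata3 shows high bars at the gene and 250 to 300 kb downstream (4.49 in mouse 1 and 4.89 in mouse 2) with an empty bin at 150 to 200 kb. Another high bar stands 150 to 200 kb upstream (4.27 in mouse 1 and 5.54 in mouse 2), over the Taf3 and the shared Atp5c1 and Kin promoters. Bins count from the 5′ end of the gene record, 11.4 kb upstream of the principal Gata3 start. The sites named +188.9 and +196.7 kb therefore fall in the bin at 200 to 250 kb.

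Among the GATA genes, Gata3 had the strongest promoter signal in both mice. At the promoter of Gata1, the erythroid factor gene, the signal was 0.855 in mouse 1 and 1.14 in mouse 2. Gata2, Gata4 and Gata5 had no promoter peak in either mouse, and Gata6 had 0.403 in mouse 2 alone. Of the cofactor genes, Zfpm1 (FOG1) had 12.6 in mouse 1 and 40.2 in mouse 2, and Zfpm2 (FOG2) had 0.262 in mouse 2 alone. With Gata3, 3 of the 8 genes had a promoter peak in both mice, against 56.6% of all protein-coding genes. In the gene body plus 10 kb, Gata3 had 15 peaks in mouse 1 and 16 in mouse 2, and each of the other 5 GATA genes had at most 3.

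Among 20 other genes of thymocyte transcription factors, all 20 had a promoter peak in both mice, against 56.6% of all protein-coding genes. All 20 also had a site outside promoters 100 to 500 kb downstream in both mice, against 78.4% of all. Gata3, with 57 peaks in its window, was below their median of 88.5. In 5 of them the strongest such site was at least as strong as that of Gata3, against 11.8% of all protein-coding genes, namely Tcf7, Cbfb, Tcf3, Ikzf3 and Zbtb7b. The strongest far site of Tcf7, the gene of the T lineage factor TCF1, had a signal of 11 in mouse 1 and 14.6 in mouse 2. That of Zbtb7b, which encodes the CD4 lineage factor ThPOK, had 11.9 in mouse 1 and 18.4 in mouse 2. None of these 5 has an empty flank.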

How the data were processed

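DNase-seq was measured in 2 thymus libraries, 1 per mouse, which the labels name as separate animals of 1 group. They share 1 donor record, so the spread is that between these samples. Each library's filtered alignments gave its own peaks and cut rates, per the text that accompanies the files. Aligner and callers are unnamed in the sources used here. The genome is mm10, per the labels. Reads of C57BL/6J × CAST/EiJ hybrids were placed on a C57BL/6J reference, and the effect of CAST sequence differences on the values was not tested. The authors deposited a signal per peak, whole multiples of a step of 0.00638 in mouse 1 and 0.00504 in mouse 2 (100% of values within 0.1 steps). The p-value column the authors deposited is an FDR, listed below 0.05. Deposited footprints carry positions only.

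The shorter, stricter list of each library (59484 and 72913 peaks) was used, and the longer (93107 and 117361) as an alternative. Touching runs were merged into regions. GENCODE M21 gave genes and RefSeq GRCm38 sequence. Signal ratios use the peaks that overlap each other most. Named sites are the 3 strongest by mean signal in each zone (promoter, gene body, 0 to 100, 100 to 250 and 310 to 500 kb beyond the 3′ end, 0 to 100 and 100 to 500 kb upstream), and all sites 250 to 310 kb beyond it. A peak missing in a mouse counts as 0 in a site's mean signal. The members and lists were chosen with earlier results of these data known. The printed distances, the cluster's limits, the +283.0 kb sequence and 3 words were chosen after seeing the values. A marker gene of the lists is not reported here. Values are descriptions and no test was run. Scripts used Python 3.11.15, numpy 2.4.6, pysam 0.24.0 and matplotlib 3.10.9, and were tested on simulated data against bedtools 2.31.1.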

Additional observations from a re-analysis of the deposited data

How the results depend on the processing

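Of 47 alternatives over 10 results, 29 stayed close to the reported value (for counts, within 1.5 times it, otherwise within 1 SD), 18 did not, and 0 reversed a direction. This tally is a weak check. With 2 animals, 1 animal's value lies within 1 SD of their mean by construction, so leaving out a mouse could hardly move such results. Only the log2 signal ratio has a sign, so only it could have reversed. With the longer peak list the window held 89 peaks, the share of mouse 1 peaks found in mouse 2 was 77.3%, the downstream share of peaks 36%, and the peaks 250 to 310 kb beyond the 3′ end 11.5. A reciprocal overlap of 50% gave a share found of 68.5%, and counting over mouse 2 peaks, an alternative chosen after seeing the data, 81.7%. With 250 kb on either side there were 30 peaks, 21.6% of them downstream, 18242 accessible bases and 167 footprints. With 1 Mb there were 60 peaks and 33774 accessible bases, little more than with 500 kb although the window was far wider. With 1 Mb the downstream share was 32.6% and Gata3 had more peaks than 38.1% of genes. In the main 500 kb window, Gata3 had more peaks than 95.8% of the genes with an empty flank. Distances from the shortest protein-coding transcript, an incomplete model, gave a downstream share of 40.6%. An FDR of at most 0.001 left 20324 accessible bases, and footprints found in the other mouse numbered 120. Of the 5 genes most similar in profile, 0 stayed among the top 5 with peak counts, and 3 to 4 with a mouse left out. The strongest far site was 9.39 (at +283.0 kb) in mouse 1 alone and 12.5 (at +284.4 kb) in mouse 2 alone. Why these values moved was not tested. No paired analysis was possible because there is only 1 group. With 2 animals no spread is well estimated, and the read depth is unknown because the scale of the signal is not named.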

Other observations

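The genes whose profile of summed signal in 20 bins of 50 kb was most like that of Gata3, on the log2(signal + 1) scale, were compared over 21659 genes. They were Tnrc6a (Pearson r = 0.815), Rab13 (0.715), Jtb (0.704), Fancl (0.695) and Zfp24 (0.683). The r values are over bins of the same 2 libraries, which are not independent, and describe layout alone. Tnrc6a had 19 peaks in its window in mouse 1 and 22 in mouse 2, fewer than Gata3, and by peak counts per bin its r was 0.534. Rab13 and Jtb both lie on chromosome 3.

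Weak cutting went beyond the peaks. Within the Gata3 window the longer lists held 88 entries in mouse 1 and 90 in mouse 2. Of the footprints there, 181 of 272 in mouse 1 and 183 of 272 in mouse 2 overlapped peaks, and the rest lay in accessible sequence outside them, flanks of strong sites included. The genome-wide share of footprints in peaks is not given here, so these counts do not show a trait of Gata3.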
